A study of Mus musculus with 6 samples.

Results

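The 9 genes described here mark the cells that wrap the vessels of the brain, the pericytes of capillaries and the smooth muscle cells of arterioles. They were chosen by gene symbol from textbook markers of these cells: Acta2, Tagln, Myh11 and Myl9 of the contractile apparatus, and Pdgfrb, Rgs5, Vtn, Anpep and Notch3 of pericytes or of both cell types. All 9 were found among the 16060 rows of the deposited table, each on 1 row, and all 9 passed the filter on low values that 13321 rows passed. RNA was sequenced from the hippocampus of adult male C57BL/6 mice. There were 3 libraries of a control group injected with saline and 3 of a group injected with methamphetamine (MA). That each library is of 1 mouse is read from the study's n = 3 per group and is not stated. According to the study's methods, the MA dose was raised each week, and the mice were killed after behavioral testing that followed the last week of injections. No transgene or other allele is named for either group. The libraries are of whole tissue, so fewer vessel-wall cells and less RNA per cell cannot be told apart. The question addressed was whether the RNA level of these genes differed between the MA and the control libraries.

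Mural cells, as pericytes and vascular smooth muscle cells are called together, control the width of small vessels and help to maintain the blood-brain barrier. Smooth muscle cells contract through a special actin and myosin, whose genes are switched on by serum response factor (Srf) with its partner myocardin. Pericytes are recruited to growing vessels by PDGF-B from the endothelium, which acts on their receptor PDGFRB, and Notch3 maintains mural cells through ligands on neighbouring cells.

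None of the 9 genes passed the test for a difference between the groups. A gene was called when its limma p-value, adjusted by the Benjamini-Hochberg method across the 13321 tested genes, was under 0.05, which held for 0 of the 9 and for 0.263% of all tested genes. At an unadjusted p-value under 0.05 it was also 0 of 9, against 10.4% of all tested genes. The log2 differences, as the mean of the MA libraries minus the mean of the control libraries, lay between -0.15 for Anpep and 0.24 for Myh11, with 6 genes above 0 and 3 below. Their median was 0.13, that of all tested genes was -0.010, and 47.3% of all tested genes lay above 0. The 4 contractile genes were all above 0, with a median of 0.19 that was 0.068 without control replicate 1 and 0.33 without control replicate 3, and 3 of the 4 were above 0 without MA replicate 1. The 5 others had a median of -0.012, which has no stable sign, since it lay above 0 whichever library was left out (0.012 to 0.13), with quality weights (0.047) and after a correction for exonic length and base content (0.041). Pdgfrb was the only one of the 9 in which the groups did not overlap, against 17.5% of all tested genes, so the share of the members is no higher than the background. The values are the deposited ones, on a log2 scale that is read as log2 of RPKM (reads scaled to exon length and library size) plus 1. The table gives no number of reads, and the depth behind each value is unknown.

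**Figure D1:**
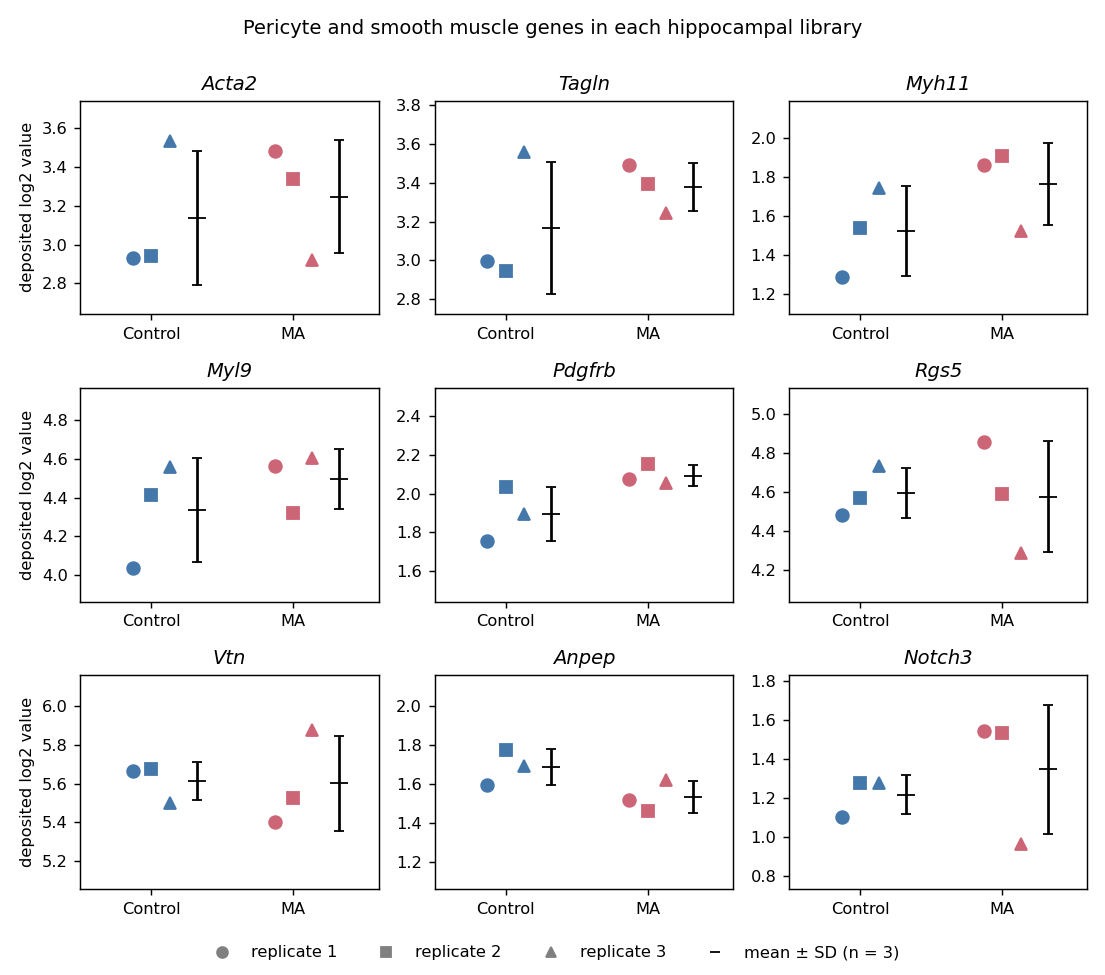
Deposited log2 value of the 9 genes in the 3 control (blue) and 3 MA libraries (red), with the mean and SD (n = 3) of each group in black; the symbol gives the replicate number, and each axis covers the same span of log2 units around the gene's own mean. The groups overlap in each gene but Pdgfrb, whose MA libraries lie at 2.05 or above and whose control libraries lie at 2.03 or below.

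The 9 genes covered a wide range of levels. Averaged over the 6 libraries and set back to RPKM, which is per length and so allows a comparison between genes, Vtn had a level of 48.0, Rgs5 of 23.2, Myl9 of 20.5, Tagln of 8.79 and Acta2 of 8.29. Below them came Pdgfrb at 2.9996, Myh11 at 2.16, Anpep at 2.06 and Notch3 at 1.46. Vtn stood above Rgs5, Myl9 above Tagln, and Acta2 above Pdgfrb with no overlap of their libraries. Rgs5 and Myl9 overlapped, as did Tagln and Acta2, and as did each neighbouring pair from Pdgfrb down to Notch3. Within the overlapping pairs, Tagln lay above Acta2 and Pdgfrb above Myh11 in 6 of the 6 libraries, whereas Myh11 lay above Anpep in only 3. Among the tested genes, Vtn was at percentile 86.8 of the level and Notch3 at percentile 12.8.

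Acta2 encodes the actin of smooth muscle. Its gene (ENSMUSG00000035783) lies on the minus strand of chromosome 19 of GRCm38 from 34241090 to 34255590 and has 10 separate exonic stretches. On the log2 scale its values were 2.93, 2.94 and 3.54 in control replicates 1, 2 and 3, and 3.48, 3.34 and 2.92 in MA replicates 1, 2 and 3. Each group thus held both high and low libraries, and the highest and the lowest of the 6 came from different groups. The means were 3.14 ± 0.35 and 3.25 ± 0.29 (SD, n = 3 each), a difference of 0.11 (95% interval -0.38 to 0.60, limma adjusted p = 0.905). Of the 2146 different stretches of 50 bases in its transcripts, 0.326% also occur in transcripts of other genes, among them Actg1, so few reads of that length could be shared with other actins.

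Tagln encodes transgelin, an actin-binding protein of smooth muscle that is also called SM22. The gene (ENSMUSG00000032085, chromosome 9, 45929619 to 45936058, minus strand) was at 2.999, 2.94 and 3.56 in the control libraries and at 3.49, 3.40 and 3.25 in the MA libraries. Control replicates 1 and 2 were the lowest of the 6 and control replicate 3 the highest, so the MA libraries fell inside the range of the controls. The means were 3.17 ± 0.34 and 3.38 ± 0.12 (SD, n = 3 each), with a difference of 0.21 (95% interval -0.20 to 0.62, limma adjusted p = 0.734). On the opposite strand, the antisense gene Gm48529 covers 62.4% of its exonic bases and Pcsk7 a further 5.43%. Whether reads were counted by strand is not given in the sources used here, so reads of these genes cannot be told apart and the level of Tagln is uncertain.

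The library pattern of Acta2 and Tagln was close to the same. Acta2 minus Tagln was between -0.069 and -0.0022 in 5 of the 6 libraries, and -0.32 in MA replicate 3.

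Myh11 encodes the heavy chain of smooth muscle myosin, the motor that pulls on this actin. The gene (ENSMUSG00000018830, chromosome 16, 14194535 to 14291372, minus strand, 43 exonic stretches) was at 1.28, 1.54 and 1.75 in the control libraries and at 1.86, 1.91 and 1.52 in the MA libraries. MA replicates 1 and 2 lay above all control libraries, and MA replicate 3 lay below 2 of them. Its difference of 0.24 was the largest of the 9 (95% interval -0.14 to 0.62, limma adjusted p = 0.669; group means 1.52 ± 0.23 and 1.77 ± 0.21, SD, n = 3 each).

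Myl9 encodes the regulatory light chain of this myosin, whose phosphorylation starts contraction. The gene (ENSMUSG00000067818, chromosome 2, 156775420 to 156781658, plus strand) was at 4.04, 4.41 and 4.56 in the control libraries and at 4.56, 4.32 and 4.60 in the MA libraries. Control replicate 1 was below the other 5 libraries, among which the groups were mixed. The difference was 0.16 (95% interval -0.19 to 0.51, limma adjusted p = 0.770; group means 4.33 ± 0.27 and 4.49 ± 0.15, SD, n = 3 each).

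Since contractile genes are classic targets of serum response factor, the stretches before the start of the genes were searched for its binding motif, the CArG box, on both strands. A window of 250 bases before and 50 after the start (RefSeq, GRCm38.p6) was at hand for 6 of the 9 genes. The Myl9 window held 1 full CArG box, 161 bases before the start, and of all 32851 windows 1.63% held at least 1. When 1 of the central bases was allowed to differ, Myl9 and Acta2 each held 2 matches, and 9.98% of all windows held at least 1. These matches are shown because Acta2 and Myl9 are the contractile genes with a window, with capitals marking the CArG letters; a match is a run of letters and not a site shown to be bound. The Myl9 stretch is chr2:156775283-156775394 on the plus strand, and its first capitals are the full box. The Acta2 stretches are chr19:34255438-34255467 and chr19:34255388-34255417 on the minus strand, 84 and 34 bases before the RefSeq start for the capitals. Both lie inside a longer first exon in GENCODE M21.
Myl9: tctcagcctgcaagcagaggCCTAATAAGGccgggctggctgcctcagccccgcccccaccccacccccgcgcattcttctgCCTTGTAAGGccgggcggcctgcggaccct
Acta2, farther from the start: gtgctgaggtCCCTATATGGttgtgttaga
Acta2, nearer to the start: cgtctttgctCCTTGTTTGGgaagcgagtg

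Pdgfrb encodes the receptor through which PDGF-B holds pericytes at the vessel. The gene (ENSMUSG00000024620, chromosome 18, 61045150 to 61085061, plus strand) was at 1.76, 2.03 and 1.90 in the control libraries and at 2.07, 2.15 and 2.05 in the MA libraries. All 3 MA libraries lay above all 3 control libraries, though MA replicate 3 and control replicate 2 were close together. Its difference of 0.20 had the smallest p of the 9 (95% interval -0.059 to 0.45, limma unadjusted p = 0.112 and adjusted p = 0.598; group means 1.90 ± 0.14 and 2.09 ± 0.052, SD, n = 3 each). The exact two-sided permutation test gave p = 0.1, the smallest value that 3 libraries against 3 allow.

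Rgs5, which encodes a brake on G-protein signalling and is among the most abundant pericyte transcripts, had nearly the same mean in both groups. The gene (ENSMUSG00000026678, chromosome 1, 169655501 to 169695813, plus strand) was at 4.48, 4.57 and 4.73 in the control libraries and at 4.86, 4.59 and 4.28 in the MA libraries. The MA libraries held both the highest and the lowest value. The difference was -0.019 (95% interval -0.37 to 0.34, limma adjusted p = 0.979; group means 4.59 ± 0.13 and 4.58 ± 0.29, SD, n = 3 each).

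Vtn encodes vitronectin, an adhesion protein of blood and matrix that brain pericytes secrete. The gene (ENSMUSG00000017344, chromosome 11, 78499091 to 78502324, plus strand) was at 5.66, 5.68 and 5.50 in the control libraries and at 5.40, 5.52 and 5.88 in the MA libraries. Here too the MA libraries held the highest and the lowest value, but in reverse order, with MA replicate 3 at the top and MA replicate 1 at the bottom. The difference was -0.012 (95% interval -0.32 to 0.29, limma adjusted p = 0.986; group means 5.61 ± 0.098 and 5.60 ± 0.25, SD, n = 3 each).

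Anpep, which encodes the surface peptidase CD13 used to stain brain pericytes, had the lowest difference of the 9. The gene (ENSMUSG00000039062, chromosome 7, 79821803 to 79861059, minus strand) was at 1.59, 1.78 and 1.69 in the control libraries and at 1.52, 1.46 and 1.62 in the MA libraries. Only control replicate 1 and MA replicate 3 were out of the order of the groups. The difference was -0.15 (95% interval -0.40 to 0.094, limma adjusted p = 0.681; group means 1.69 ± 0.091 and 1.53 ± 0.081, SD, n = 3 each).

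Notch3 encodes the Notch receptor of mural cells, in which mutations cause the small-vessel disease CADASIL. The gene (ENSMUSG00000038146, chromosome 17, 32120820 to 32166852, minus strand, 33 exonic stretches) was at 1.10, 1.28 and 1.28 in the control libraries and at 1.54, 1.54 and 0.96 in the MA libraries. MA replicates 1 and 2 lay above all control libraries and MA replicate 3 below all of them. The difference was 0.13 (95% interval -0.28 to 0.54, limma adjusted p = 0.857; group means 1.22 ± 0.10 and 1.35 ± 0.33, SD, n = 3 each). The antisense gene Gm17276 covers 6.03% of its exonic bases, which makes its level uncertain as for Tagln. As fold changes of RPKM plus 1, the 95% intervals of the 9 genes reach down to 0.757 for Anpep and up to 1.54 for Myh11. This scale understates the change in RPKM of low genes: with an offset of 0.01 in place of 1, the log2 difference of Myh11 was 0.36 and that of Anpep -0.23, and neither was called.

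**Figure D2:**
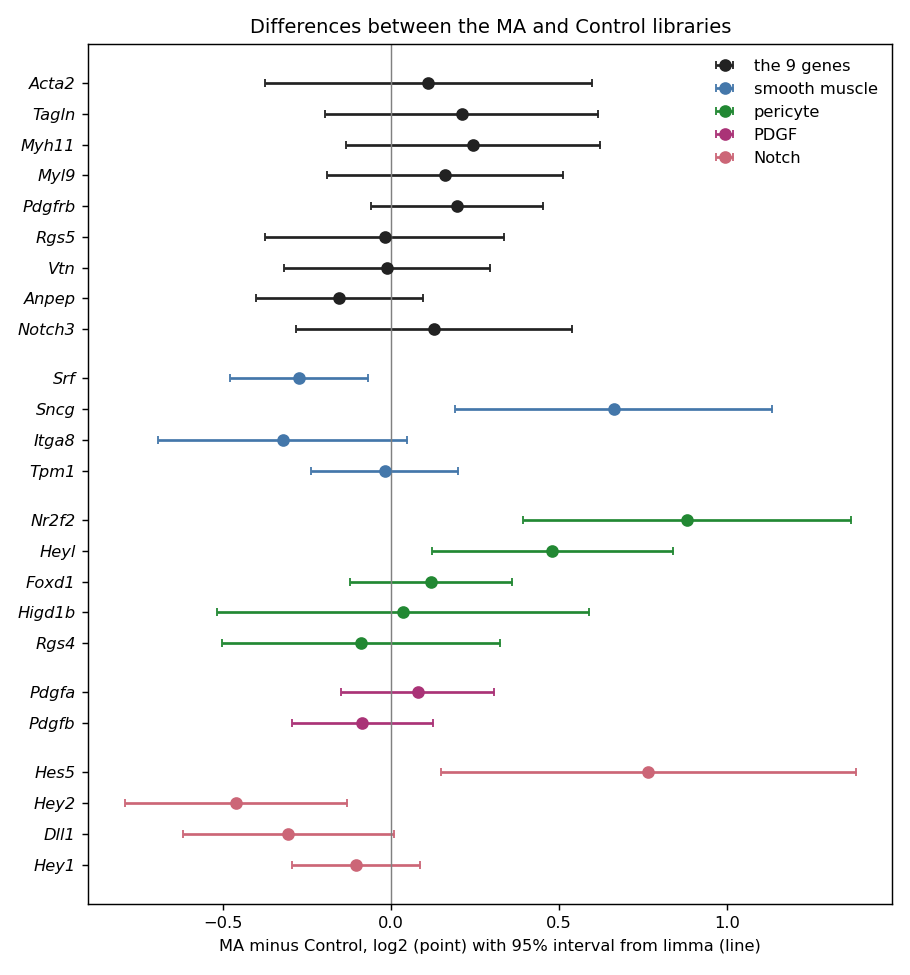
Difference between the MA and control libraries on the log2 scale (point) with its 95% interval from limma (line) for the 9 genes (black) and for named genes of the further smooth muscle (blue), pericyte (green), PDGF (purple) and Notch lists (red). All 9 black intervals cross 0, and those of Srf, Sncg, Nr2f2, Heyl, Hes5 and Hey2 do not, although their limma adjusted p-values lie between 0.219 and 0.383.

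The library labelled MA replicate 3 stood apart from the rest, with a mean correlation to its own group of 0.978 against 0.984 to 0.993 for the other 5 libraries. It held 0 values of exactly 0, against 259 to 437 in the others. Its deviations from each gene's mean correlated with the share of G and C bases at 0.33 (Spearman), against -0.20 to 0.056 in the others. In MA replicate 3, Vtn and Myl9 reached their highest value of the 6 libraries, and Acta2, Rgs5 and Notch3 their lowest. Across the 13302 tested genes with a known exonic length and base content, the 970 genes under 1.5 kb deviated in this library by a median of 0.16 from their mean over the 6 libraries, and the 4364 genes over 6 kb by -0.11. In the other 5 libraries these medians lay between -0.089 and 0.049 for the short genes and between -0.019 and 0.038 for the long ones. Vtn and Myl9 have 2.03 and 1.16 kb of exons, Rgs5 4.55 kb and Notch3 8.09 kb, but Acta2, low in this library, has only 2.20 kb. The part of length or of base content in the members' values was not tested on its own. After a correction of each library for length and base content, the differences of the 9 genes ranged from -0.16 for Anpep to 0.23 for Myh11 and 0 of 9 were called.

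**Figure D3:**
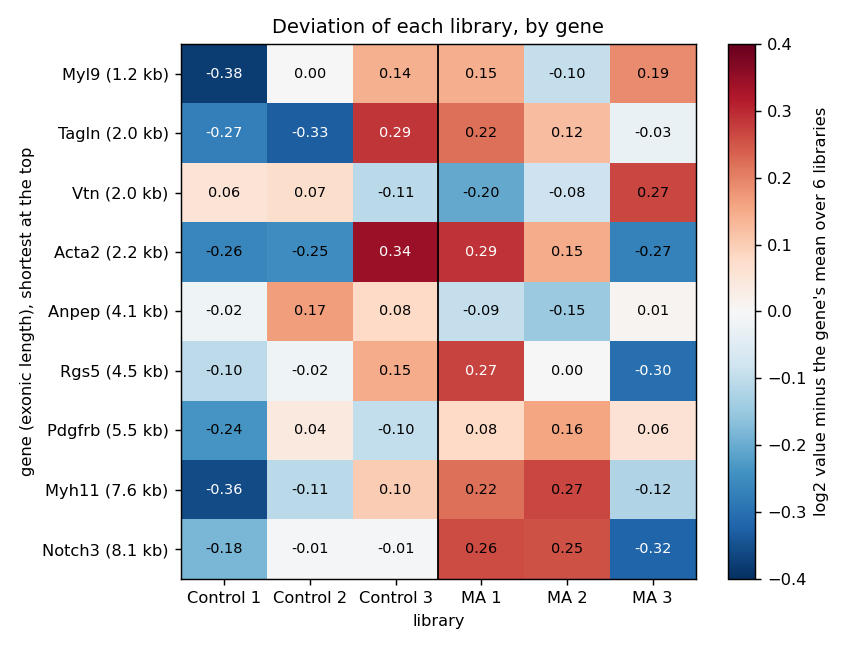
Deviation of each library (column) from the mean of the 6 libraries for each of the 9 genes (row, with exonic length in kb, shortest at the top) on the log2 scale, red above and blue below the mean. Control replicate 1 is low in the 4 contractile genes and Pdgfrb, and MA replicate 3 is low in Notch3, Rgs5 and Acta2 and high in Vtn and Myl9.

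Without MA replicate 3, the difference was 0.32 for Notch3 and 0.36 for Myh11 (limma adjusted p = 0.151 and 0.206). In that fit 0 of the 9 genes and 246 of all 13192 tested genes were called, against 35 genes with all 6 libraries. The groups then did not overlap in 4 of the 9, higher in MA for Myh11, Pdgfrb and Notch3 and lower for Anpep, where 43% of all tested genes did not overlap. Control replicate 1 was the lowest of the 6 libraries for Myh11, Myl9 and Pdgfrb. When it was left out, the median difference of the 9 genes was 0.012 in place of 0.13.

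Further genes of the same cells held no call either. Of 19 further smooth muscle genes, 17 were in the table and 14 were tested, while Cnn1, Actg2 and Myocd fell under the filter. None was called (limma), 1 higher and 1 lower gene reached an unadjusted p under 0.05, and the median difference was 0.11 with 10 of 14 above 0. That median was 0.043 and 0.030 without MA replicates 1 and 2, 0.21 without MA replicate 3, and 0.17 with an offset of 0.01. Srf itself fell short of the adjusted threshold at -0.27 (standard error 0.088, limma adjusted p = 0.350), with all 3 MA libraries below all 3 control libraries. It is also an early gene of active neurons and not particular to muscle. Sncg, which encodes gamma-synuclein and is also found in neurons, was 0.66 higher in the MA libraries with groups that did not overlap (limma adjusted p = 0.329). Itga8, an integrin chain, was at -0.32 (limma adjusted p = 0.546), and Tpm1, a tropomyosin and the most abundant of the list, at -0.019 (limma adjusted p = 0.965). Without MA replicate 3, 1 gene of the list was called, Synpo2, at 1.15 (limma adjusted p = 0.0311), which also stands in the list of thalamic markers. With all libraries Synpo2 was at 0.72 with overlapping groups (limma adjusted p = 0.523).

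Of 22 further pericyte genes, all were in the table and 21 were tested. None was called, 3 reached an unadjusted p under 0.05, all higher in MA, and the median difference was 0.12 with 18 of 21 above 0. It was 0.064 without control replicate 1, and 0.18 with an offset of 0.01. Nr2f2, a nuclear receptor gene of veins, mural cells and some neurons, had values 0.88 higher in the MA libraries with no overlap (standard error 0.21, limma adjusted p = 0.219), and it passed the threshold without MA replicate 3 (difference 1.07, limma adjusted p = 0.0443). Heyl, a transcription factor gene that Notch switches on in mural cells, was at 0.48 (limma adjusted p = 0.350), and Foxd1, a factor of pericyte precursors, at 0.12 (limma adjusted p = 0.745), both with all MA libraries above all control libraries. These are low genes, and with an offset of 0.01 their differences were 0.92 and 0.28, neither called. Higd1b, a pericyte transcript of unclear function, was at 0.036 and Rgs4, which neurons express as well, at -0.090.

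The ligand side of both pathways was likewise without a call. All 5 tested genes of the PDGF list, that is the 4 ligands and Pdgfra, had adjusted p-values above the threshold, and their median difference was 0.080, against 0.0061 without control replicate 1 and 0.038 without MA replicate 2. Pdgfb, the ligand of PDGFRB, was at -0.085 (limma adjusted p = 0.805) and Pdgfa at 0.080 (limma adjusted p = 0.838). Without MA replicate 3, Pdgfra, the receptor of oligodendrocyte precursors and fibroblasts, was called at 0.67 (limma adjusted p = 0.0339). With all libraries it was at 0.47 with overlapping groups (limma adjusted p = 0.423). Of 15 other Notch genes none was called, 8 lay above 0 and 7 below, and the median of 0.011 lay between -0.064 and 0.048 with 1 library left out, below 0 without control replicate 2 or 3 or MA replicate 1 or 3. The targets, with Heyl of the pericyte list again among them, had differences of opposite sign. Hes5, which is mainly a gene of neural progenitors and astrocytes, was at 0.77 and Hey2, of arterial endothelium and smooth muscle, at -0.46, each with groups that did not overlap (limma adjusted p = 0.383 and 0.339). With an offset of 0.01, Hey2 was at -0.81. Hey1 was at -0.10, and the ligand gene Dll1 at -0.31 (limma adjusted p = 0.719 and 0.487).

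Of the 14 listed paralogues of the contractile genes, 11 were tested and none was called, with a median of -0.084 and 9 of 11 below 0. The median was -0.048 and -0.035 without MA replicates 1 and 2, and without MA replicate 3 Tagln2, a non-muscle relative of Tagln, was called lower at -0.49 (limma adjusted p = 0.0397). Myh9, a non-muscle myosin heavy chain gene, was at -0.25 with groups that did not overlap (limma adjusted p = 0.350).

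Other cells of the vessel and its surroundings were compared by their own markers. Of 20 endothelial markers none was called, and the median of 0.062 had no stable sign, at -0.0052 without MA replicate 1, 0.15 without control replicate 3 and 0.19 without MA replicate 3. Cldn5, the main claudin of the barrier, was 0.30 higher in the MA libraries with no overlap (limma adjusted p = 0.241). Without MA replicate 3 Slco1a4 and Mfsd2a were called at 1.10 and 0.62 (limma adjusted p = 0.0307 and 0.0397). With all libraries they were at 0.77 and 0.42 with overlapping groups (limma adjusted p = 0.413 and 0.478). The summed level of the 20 endothelial markers was from 368 to 425 RPKM in the control and from 416 to 455 RPKM in the MA libraries. For the 4 contractile genes the sums were from 30.5 to 46.3 and from 40.3 to 45.6 RPKM, and for the 5 other members from 76.3 to 79.8 and from 75.2 to 82.4 RPKM. The ranges of the 2 groups overlapped in each of these 3 sums. The fibroblast and meningeal markers had 14 tested genes, none of them called and 4 with no overlap, all higher in MA. Their median of 0.11 was 0.20 without control replicate 3 and 0.19 with an offset of 0.01. They had a median of 0.076 without control replicate 2 and of 0.081 without MA replicate 3. The 4 with no overlap were Igf2 at 1.26, Dcn at 1.30, Mgp at 0.52 and Fbln1 at 0.45 (limma adjusted p = 0.0783, 0.140, 0.366 and 0.217). They encode a growth factor and 3 matrix proteins. Of the 14 genes 11 lay above 0, among them Col1a1, Col3a1, Ogn and Lum at only 0.020, 0.034, 0.061 and 0.073. The 3 below 0 were Aldh1a2, Crabp2 and Slc22a6 at -0.14, -0.11 and -0.083. Without MA replicate 3, Dcn and Igf2 were called at 1.61 and 1.05 (limma adjusted p = 0.0135 and 0.0312). Pdgfra, which stands in this list as well as in the PDGF list, was then also called, at 0.67 (limma adjusted p = 0.0339). The list summed to between 88.9 and 119 RPKM in the control and between 160 and 191 RPKM in the MA libraries. Igf2, Mgp and Dcn were the largest parts of these sums. Their means were 25.8, 42.9 and 6.67 RPKM in the control and 64.6, 61.1 and 18.7 RPKM in the MA libraries. Dpt, under the filter, was near 0 in 1 library.

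**Figure D4:**
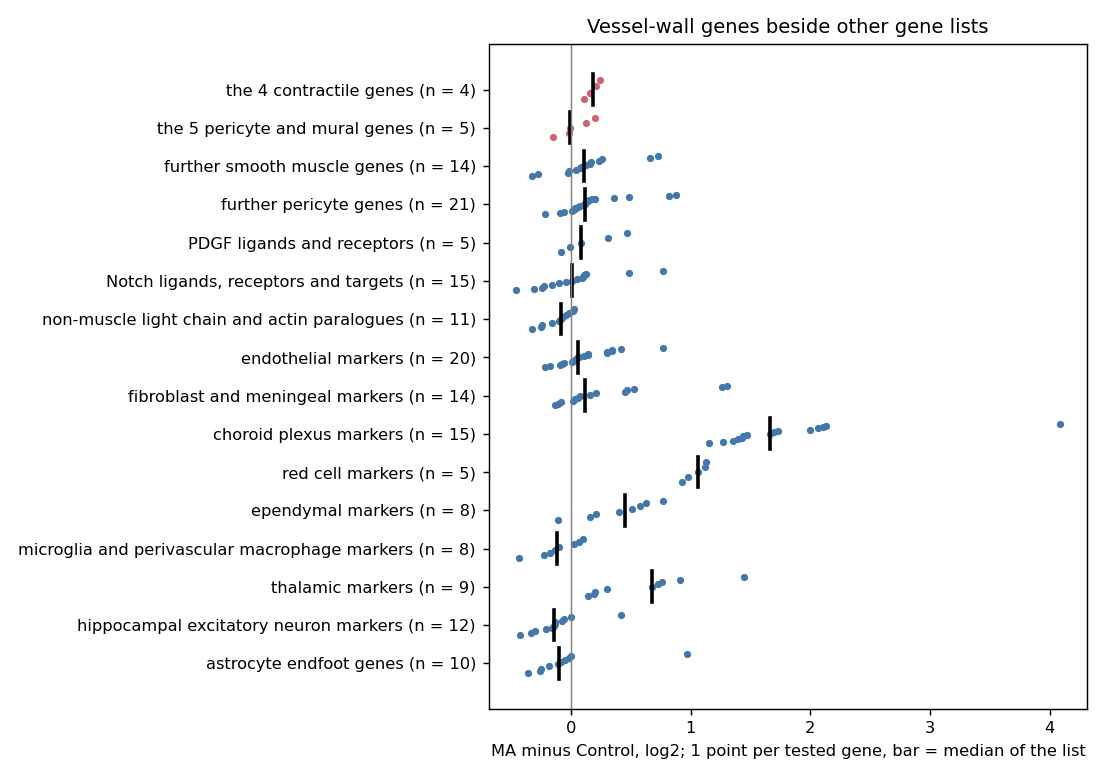
Difference between the MA and control libraries on the log2 scale for each tested gene (point) of the 9 genes (red, in 2 groups) and of 14 other lists (blue), with the median of each list as a black bar. The medians of the contractile and of the pericyte and mural genes are 0.19 and -0.012, and those of the choroid plexus and red cell markers are 1.66 and 1.06.

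All 15 choroid plexus markers were higher in each MA library than in each control library, 7 of them called (limma), with a median of 1.66 (2.67 with an offset of 0.01) and a summed level from 106 to 483 RPKM in the control and from 1948 to 5348 RPKM in the MA libraries. Ttr, the transthyretin gene, made up most of these sums, with means of 211 RPKM in the control and 3010.5 RPKM in the MA libraries. Enpp2 and Folr1 were called at 2.13 and 2.10 (limma adjusted p = 0.0244 and 0.0456), whereas Ttr at 4.09 and Kcne2 at 2.07 were not (limma adjusted p = 0.0887 and 0.0975). No choroid plexus gene was called without control replicate 1, 2 or 3 or MA replicate 2, and 10 of 12 tested were without MA replicate 3. The choroid plexus has vessels with mural cells and fibroblasts of its own. The 5 red cell markers were also higher in each MA library, with 3 called, namely Hba-a1, Hba-a2 and Hbb-bs at 1.13, 1.06 and 0.97, and with Hbb-bt at 1.12 not called (limma adjusted p = 0.0645). All 5 were called without MA replicate 3, and 0 without any other single library or with the replicate number as a block. They summed to between 1599 and 2024 RPKM in the control and between 3319 and 4378 RPKM in the MA libraries. All 9 tested thalamic markers lay above 0 with a median of 0.68, none was called, and Calb2 was at 1.44 (limma adjusted p = 0.203). Without MA replicate 2 the median was 0.28 with 7 of 9 above 0, and without MA replicate 3 it was 1.10 with 1 called. Their sums overlapped, from 59.1 to 84.6 and from 78.2 to 153 RPKM. None of the defining markers of these 3 lists was at 0 in any library. The part of choroid plexus, blood and thalamus in the values of the 9 genes was not tested.

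The ependymal markers had a median of 0.45 over 8 tested genes, the markers of microglia and perivascular macrophages -0.12 over 8, and the astrocyte endfoot genes -0.097 over 10, with none called in these 3 lists. Without MA replicate 3 the ependymal median was 0.16 and the astrocyte one -0.052. Of the 10 astrocyte genes 9 lay below 0 with all libraries, among them Aqp4 at -0.36 with groups that did not overlap (limma adjusted p = 0.458). Agt, the angiotensinogen gene of astrocytes, was the 1 above 0, at 0.97 with overlapping groups (limma adjusted p = 0.357). It was called at 1.32 without MA replicate 3 (limma adjusted p = 0.0397). Without MA replicate 1 the astrocyte median was -0.16. The labelled tissue was checked on 12 markers of hippocampal excitatory neurons, all of them tested. Their sums were from 548 to 693 RPKM in the control and from 576 to 665 RPKM in the MA libraries, with a median difference of -0.14 and none called. This median was -0.041, -0.22 and -0.24 without control replicates 1, 2 and 3. Of the 12 markers 11 lay below 0 with all libraries, and 5 lay above 0 without control replicate 1. Neurod6 at -0.43, Rasgrp1 at -0.34 and Wfs1 at -0.30 had all MA libraries below all control libraries (limma adjusted p = 0.290, 0.514 and 0.413). Crym, the 1 above 0, was at 0.42 with no overlap (limma adjusted p = 0.290). Its mean rose from 144 RPKM in the control to 193 RPKM in the MA libraries, which is part of the sums.

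The genes most like the mean pattern of each group of members were sought by Pearson's r with the mean of the scaled members. This is a description over 6 libraries that share the group and all traits of each library. For the 4 contractile genes these were Syt6, Prdm16, Ebf1, Zfp395 and Cacna2d2, with r from 0.981 to 0.993. Of these, Ebf1, a factor gene of pericytes among other cells, also stands in the list of further pericyte genes. For the 5 others they were AI429214, Cox6a2, Wrn, Cstb and Cav1, with r from 0.965 to 0.984, of which Cav1 encodes the coat protein of caveolae in endothelium and smooth muscle. The 5 members behind this mean did not move together. Vtn was highest in MA replicate 3 and lowest in MA replicate 1, and Rgs5 and Notch3 were the reverse, so the mean is not the pattern of each member. None of these 10 genes was called (limma adjusted p from 0.614 to 0.994).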

How the data were processed

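Hisat2 for alignment, featureCounts for counting and FPKM by gene length are what the authors' methods name, whereas the submitters' processing notes name Bowtie 0.12.2 and builds mm8 and mm9. The deposited values are on a log2 scale, named as RPKM. A log base of 2 was taken because back-transformed values times exonic length then sum to 1.78 to 1.88 times the scaled total of a library, against 18.2 or more for a natural log. The 6 libraries share 1 highest value and so had been normalized to each other. Neither step is described. Depth is unknown.

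The deposited values were tested with limma 3.58.1 in R 4.3.3 (lmFit, eBayes with trend), with no covariate, over genes with a back-transformed value (offset 1) of at least 0.5 in at least 3 libraries. Single genes were also tested by exact permutation. The test was checked on simulated data. Lists were described by counts and medians. The members and lists were chosen with earlier results of these data known. The rule for named genes was the members, the called or non-overlapping genes of each list (up to the 4 largest differences), its 2 most abundant, and for each member group the 5 genes with the highest Pearson r to it. Of the list genes this selects, the text names only a part. Genes of the vessel wall, choroid plexus, blood, thalamus and hippocampal neuron lists are among them, and the rest enter only the counts and medians. Genes called without MA replicate 3 were named after their values were seen. Same-numbered libraries did not deviate together. Alternatives were offsets of 0.1 and 0.01, other filters, centring, quantile normalization, no trend, quality weights, a replicate block, leaving out each library and, added after seeing the data, a correction for length and GC. Coordinates are from GENCODE M21 (GRCm38), matched for 16001 of 16031 identifiers and given for location only. No label says whether the mice were handled separately, so p-values measure the spread between these libraries, which may be technical.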

Additional observations from a re-analysis of the deposited data

How the results depend on the processing

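The count of 0 called members held under all 17 alternatives, though only 5 members were tested with a minimum mean of 5. No gene at all was called without Control replicate 2, Control replicate 3 or MA replicate 2, so the count of 0 members is not informative there. The lowest limma adjusted p of a member under any alternative was 0.137, for Myh11. The median difference of the members stayed above 0, from 0.012 without Control replicate 1 to 0.22 without MA replicate 3. Vtn, Rgs5 and Acta2 changed sign when libraries were left out, with ranges from -0.15 to 0.086, from -0.16 to 0.13 and from -0.0056 to 0.31. Rgs5 also did so with quality weights (0.047) and with the length and GC correction, with or without the replicate block (0.041). Tpm1, Higd1b and Rgs4 changed sign with quality weights (0.083, -0.20 and 0.091) and ranged from -0.089 to 0.045, from -0.18 to 0.20 and from -0.20 to 0.12 with 1 library left out. The other 6 members kept their direction in these fits.

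Over all genes, 35 were called, against 3 with no filter, 20 with a minimum mean of 5, 586 with quality weights, 15 with the replicate block, 8 with that block and the length and GC correction, and from 0 to 246 with 1 library left out. It was 3 without Control replicate 1, 0 without Control replicate 2, Control replicate 3 or MA replicate 2, 14 without MA replicate 1 and 246 without MA replicate 3. The causes were not tested. The choroid plexus and globin genes named in the text kept their direction in these fits but not their calls. Same-numbered libraries correlated at -0.20, -0.24 and -0.34 in their deviations across genes, so the block was kept as an alternative only, and it changed no call among the members.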
